A study of Mus musculus with 6 samples.

Results

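Tagln2 and 9 other genes of the contractile actin cytoskeleton are described here in neurospheres from wild-type and Slc22a17 mutant mice. The 10 genes were taken by symbol from a table of 14327 genes: the transgelins Tagln and Tagln2, the calponins Cnn2 and Cnn3, the tropomyosins Tpm1 and Tpm4, the myosin light chain Myl9, the actinins Actn1 and Actn4, and vinculin (Vcl). Tagln2 had been chosen by its fall in FPKM from the WT to the mutant libraries, so its difference is given as a description without a test. The other 9 had been added by gene family. All 10 were in the table and all 10 reached the mean of 1 FPKM that was required for testing, as did 11596 genes in all.

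The cultures were neural stem cells of the hippocampus, isolated at postnatal day 0 and grown as floating neurospheres in DMEM-F12 with B27, N2, EGF and bFGF. Of the 6 libraries 3 came from wild-type animals (WT) and 3 from animals with a conditional knockout (cKO) of Slc22a17, which encodes a receptor for the iron-binding protein lipocalin 2. The sources used here do not name the Cre driver, the deleted part of the gene or the number of animals behind each library. The p-values therefore reflect only how far these libraries spread, and that spread may be technical. Levels are given as FPKM, which divides fragments by transcript length and by library depth, so that the levels of different genes can be compared per length.

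Actin filaments bear tension when non-muscle myosin II pulls on them. Tropomyosins wrap along the filament and govern which myosins and severing proteins reach it, calponins and transgelins bind along its side, actinins cross-link filaments, and vinculin ties them to adhesions. Tagln, Cnn1 and Myl9 are best known from smooth muscle and Tagln2, Cnn3 and Tpm4 from non-muscle cells. Many of these genes are textbook targets of serum response factor, which binds the CArG box with its cofactors of the MRTF family, and of the TEAD factors, which act with YAP.

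Slc22a17 itself stood at 169 to 204 FPKM in the WT libraries and at 164 to 187 FPKM in those labelled cKO (adjusted p = 0.707 in limma), so the labelled loss was not seen in its transcript. Every direction below is one between libraries labelled WT and cKO. The Y-linked transcripts Ddx3y and Eif2s3y summed to 0.10 and 0.07 FPKM in WT replicates 1 and 2. Their sum was 25.9 FPKM in WT replicate 3 and from 43.8 to 51.2 FPKM in the cKO libraries. WT replicate 3 thus stood apart from the other WT libraries, and every cKO library was above every WT library. Y-linked content and label therefore went together. Their parts in any difference below, including those of Tagln2 and Tpm4, cannot be told apart. The neural stem and progenitor markers were all present, with all 12 above the test minimum, and their summed level was 3992 to 4196 FPKM in WT and 3683 to 3998 FPKM in cKO.

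The stretch upstream of Tagln2 is shown first because this gene sets the pattern described here, and that of Tpm4 beside it because it was the other gene with a lower mean. Both are the 250 bases before the RefSeq start site in GRCm38.p6, 5′ to 3′ on the plus strand, at chr1:172499996-172500245 for Tagln2 and chr8:72135038-72135287 for Tpm4. Capitals mark matches to GGAATG, the core of the TEAD motif, which both lie on the other strand and so read CATTCC.
Tagln2: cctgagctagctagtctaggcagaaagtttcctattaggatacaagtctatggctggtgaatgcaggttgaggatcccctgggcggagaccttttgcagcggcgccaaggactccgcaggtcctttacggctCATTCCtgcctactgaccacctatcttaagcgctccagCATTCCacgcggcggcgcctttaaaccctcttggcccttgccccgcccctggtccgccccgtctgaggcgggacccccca
Tpm4: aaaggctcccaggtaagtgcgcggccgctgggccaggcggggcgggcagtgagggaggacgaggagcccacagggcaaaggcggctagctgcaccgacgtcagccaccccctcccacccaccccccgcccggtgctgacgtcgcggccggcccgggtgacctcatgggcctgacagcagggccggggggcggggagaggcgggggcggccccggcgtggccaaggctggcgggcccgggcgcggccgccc

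The 3 motifs were searched on both strands, from 250 bases before to 50 after the start site, in the 9 members with an entry in the RefSeq promoter table, which are all but Tagln. They were the CArG box, GGAATG and TATAAA, and none of the member matches overlapped another. The CArG box was found in 3 of the 9 (Cnn2, Myl9 and Vcl), in 1.20% of the 12054 promoters of tested genes and in 1.63% of all 32851 promoters of that length. These 3 sites are shown because the genes share the element. Each is given with 10 bases on each side, 5′ to 3′ on the plus strand, with the CArG box in capitals. The values of all 3 genes overlapped between WT and cKO, unlike those of Tagln2. The sites lie at chr10:79988534-79988563 for Cnn2, chr2:156775293-156775322 for Myl9 and chr14:20929161-20929190 for Vcl. The boxes begin 56, 161 and 227 bases before the start site of the promoter table. For Myl9 and Vcl that site is not the gene start given below.
Cnn2: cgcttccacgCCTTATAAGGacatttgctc
Myl9: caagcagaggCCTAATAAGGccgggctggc
Vcl: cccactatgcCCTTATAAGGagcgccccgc

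GGAATG was found in 4 of the 9, in Tagln2 at 118 and 80 bases before the start site and once each in Actn4, Tpm1 and Vcl. It was in 11.8% of promoters of tested genes and 14.7% of all promoters. TATAAA was found in 0 of the 9, in 6.66% of promoters of tested genes and in 13.6% of all promoters. These are matches of letters in one window per gene, and Tpm1 has further start sites outside it. The windows were rich in G and C, from 61.3% in Tagln2, the lowest of the 9, to 78.3% in Cnn3.

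The 10 genes covered a wide range of levels, and the order was led by the non-muscle forms. In WT, Cnn3 was by far the most abundant at 239 ± 19.5 FPKM (SD, n = 3, as for all means below) and made up 55.6% of the summed FPKM of the 10 genes. Tpm1 (43.0 ± 1.17 FPKM), Tpm4 (42.6 ± 3.16 FPKM) and Tagln2 (39.9 ± 5.18 FPKM) followed and did not differ beyond the spread of their libraries. Actn4 at 32.5 ± 0.89 and Vcl at 20.4 ± 2.83 FPKM came next. Myl9, Actn1, Cnn2 and Tagln were low, with WT means of 6.14, 3.09, 1.84 and 1.21 FPKM, and the values of Cnn2 and Tagln overlapped. In the libraries labelled cKO, Tagln2 (18.8 to 24.6 FPKM) overlapped Vcl (17.3 to 24.4 FPKM), and Tpm4 (29.0 to 33.4 FPKM) overlapped Actn4 (31.8 to 34.7 FPKM).

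**Figure D1:**
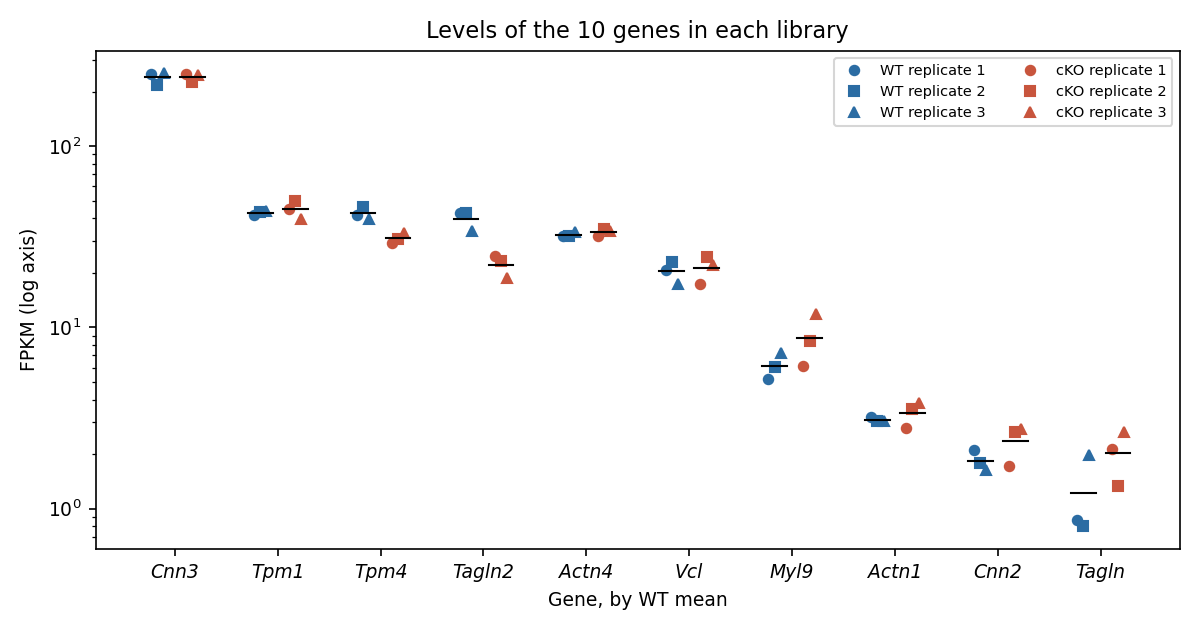
FPKM on a log axis of the 10 genes in each of the 6 libraries, ordered by WT mean, with 1 point per library (blue WT, red cKO, marker shape by replicate) and black bars for the group means. The WT and cKO points are apart for Tagln2 and Tpm4 and overlap for the other 8 genes.

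Across the 10 genes, 2 had a lower and 8 a higher mean in cKO on the log2 scale, against 55.5% lower and 44.5% higher among all genes tested. The median log2 fold change of log2(FPKM + 1), cKO minus WT, was 0.053, and that of all genes was -0.015. Most of the members thus did not have the direction of Tagln2. Of the 9 members other than Tagln2, 1 was lower in cKO without overlap between the groups, Tpm4, against 10.2% of all genes, and 0 were higher without overlap, against 7.07% of all genes. Tagln2 did not overlap either, but it was chosen by these values and is not counted here. Of the same 9 members 0 passed an adjusted p of 0.05 in limma, where 0.0259% of all genes passed in either direction, 0.0172% as lower and 0.00862% as higher. At an unadjusted p under 0.05 there was 1 of these 9, Tpm4, against 7.82% of all genes as lower and 4.44% as higher.

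**Figure D2:**
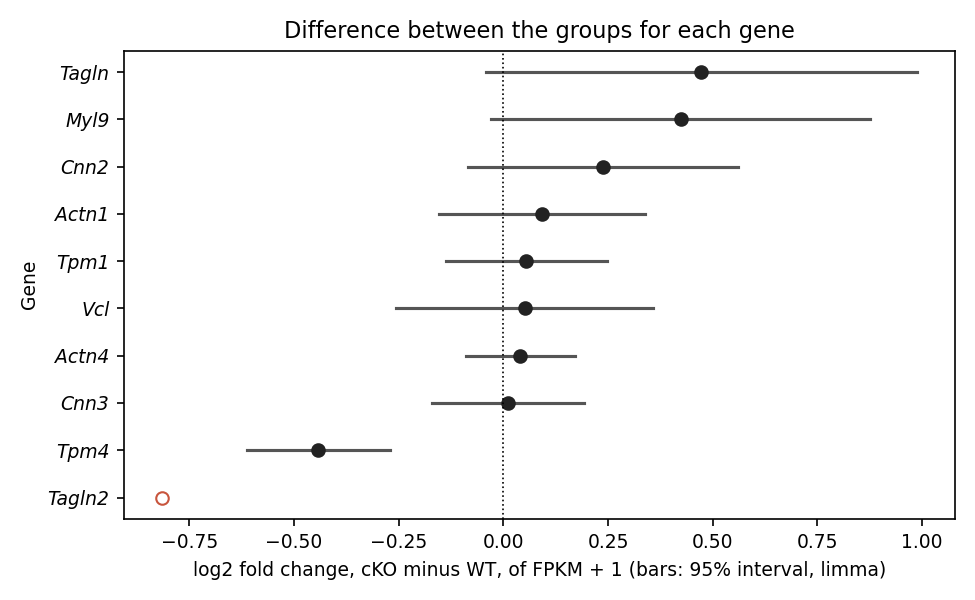
Log2 fold change of log2(FPKM + 1), cKO minus WT, for each gene, with 95% intervals from limma as bars; Tagln2, drawn as an open circle, was picked for its difference and has no interval. The interval of Tpm4 lies below 0 and those of the other 8 genes include 0.

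The transgelins bind actin along the filament, and Tagln2 is the form found in many non-muscle cells. Tagln2 (gene identifier 21346, chromosome 1, 172500246 to 172507375 in GRCm38.p6) stood at 42.9, 42.8 and 33.9 FPKM in WT replicates 1, 2 and 3. The corresponding cKO libraries held 24.6, 23.3 and 18.8 FPKM. The WT libraries were all above the cKO libraries, and WT replicate 3, the one with Y-linked transcripts, was the lowest of the WT libraries. The cKO mean of 22.2 ± 3.06 FPKM was 55.7% of the WT mean of 39.9 ± 5.18 FPKM, a log2 fold change of -0.82. Tagln2 was picked for this fall, and 10 of the 11596 genes had a lower log2 fold change. Against WT replicate 3 alone the cKO mean was 65.6% (log2 fold change -0.60), and after adjustment for the Y-linked share the log2 fold change was -0.29. That share was 0.14% to 53.4% of the cKO mean in WT and 90.3% to 106% in cKO. It thus nearly follows the label, and all values adjusted for it here are imprecise. For Tagln2, leaving out any single library gave a log2 fold change of -0.93 to -0.70.

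The means of the paralogs of Tagln2 were not lower in cKO. Tagln (identifier 21345, chromosome 9, 45929628 to 45936058), the smooth muscle transgelin, was at 0.87, 0.80 and 1.97 FPKM in WT, against 2.12, 1.34 and 2.66 FPKM in cKO (replicates in order). WT replicate 3 was level with the cKO libraries and the groups overlapped. The log2 fold change was 0.47 (SE 0.23, adjusted p = 0.448 in limma). It was 0.0095 against WT replicate 3 alone and turned to -0.74 after adjustment for the Y-linked share. Exons of Tagln overlap those of Pcsk7 on the opposite strand, a protease gene at a mean of 6.59 FPKM, and the sources used here do not say whether reads were counted by strand, so reads of these genes may be mixed in the low value of Tagln. Tagln3, the neuronal transgelin and not one of the 10, was the most abundant of the family, at 92.1, 76.6 and 108 FPKM in WT, against 107, 112 and 109 FPKM in cKO (log2 fold change 0.26, adjusted p = 0.395).

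The summed level of the 3 transgelins was 133 ± 11.9 FPKM in WT and 133 ± 2.95 FPKM in cKO, while its make-up differed. Tagln2 held 31.6%, 35.6% and 23.6% of the sum in WT and 18.4%, 17.1% and 14.4% in cKO. Tagln3 held 63.8% to 75.0% in WT and 80.0% to 83.5% in cKO, and Tagln never more than 2.04%. These shares use the same difference for which Tagln2 was picked.

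**Figure D3:**
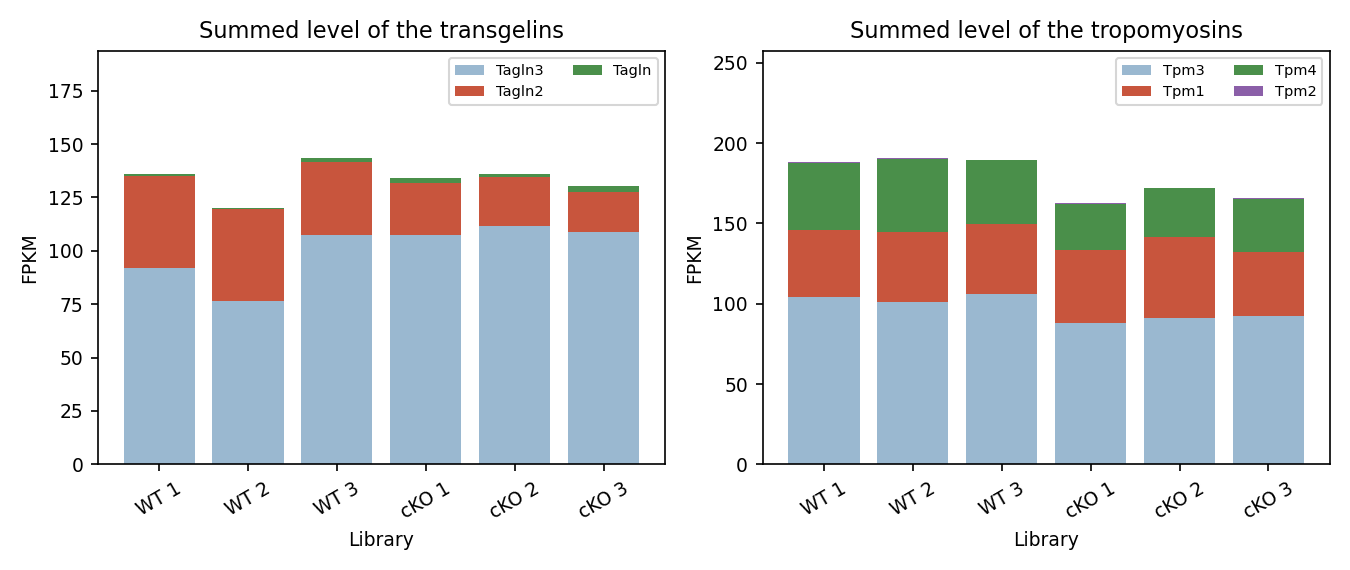
Stacked FPKM of the transgelins (left) and the tropomyosins (right) in each library. The transgelin bars have the same mean height in both groups with a smaller red Tagln2 part in cKO, and the tropomyosin bars are lower in all 3 cKO libraries, where the Tpm4 and Tpm3 parts are smaller.

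Among the tropomyosins, Tpm4 was lower in every cKO library than in any WT library, and Tpm1 overlapped. Tpm4 (identifier 326618, chromosome 8, 72135288 to 72153142), a short non-muscle tropomyosin, was at 41.9, 46.0 and 39.8 FPKM in WT, against 29.0, 30.7 and 33.4 FPKM in cKO. The lowest cKO value was that of replicate 1. The cKO mean of 31.0 ± 2.18 FPKM was 73.0% of the WT mean of 42.6 ± 3.16 FPKM, with a log2 fold change of -0.44 (SE 0.075, 95% interval -0.61 to -0.27). By unadjusted p (0.00029) Tpm4 was the 26th of all genes, yet it missed the threshold (adjusted p = 0.126 in limma). The log2 fold change was -0.49 to -0.39 with any single library left out, -0.35 against WT replicate 3 alone and -0.25 after adjustment for the Y-linked share. Tpm4 passed where libraries were weighted by their consistency (adjusted p = 0.0304), a setting that called 0.647% of all genes as lower.

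Tpm1 (identifier 22003, chromosome 9, 67022590 to 67049672) encodes long and short tropomyosins of muscle and non-muscle cells, and the annotation gives it 16 coding transcripts that a value per gene cannot separate. It was at 41.7, 43.2 and 44.0 FPKM in WT, against 45.2, 50.02 and 39.4 FPKM in cKO (log2 fold change 0.055, interval -0.14 to 0.25, adjusted p = 0.844). The cKO values lay on both sides of WT. Tpm3, another non-muscle tropomyosin that was not one of the 10, was at 104, 101 and 106 FPKM in WT, against 88.2, 91.3 and 92.7 FPKM in cKO, again without overlap (log2 fold change -0.19, adjusted p = 0.238). The muscle form Tpm2 was at 0.11 to 0.39 FPKM throughout. Summed over Tpm1 to Tpm4 the level was 188 to 191 FPKM in WT and 163 to 172 FPKM in cKO. The share of Tpm4 in that sum was 20.9% to 24.1% in WT and 17.8% to 20.1% in cKO.

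Neither of the calponins, which restrain myosin on actin, passed the test. Cnn3 (identifier 71994, chromosome 3, 121426541 to 121458205) is the form of non-muscle and neural cells and made up 98.8% to 99.3% of the calponin sum in each library. Its values were 249, 217 and 252 FPKM in WT, against 250, 226 and 247 FPKM in cKO. Replicate 2 was the lowest library of each group. The log2 fold change was 0.011 with an interval of -0.17 to 0.19 (adjusted p = 0.971). Cnn2 (identifier 12798, chromosome 10, 79988600 to 79995400), a calponin of many cell types, was at 2.10, 1.79 and 1.63 FPKM in WT, against 1.72, 2.66 and 2.74 FPKM in cKO. Only cKO replicates 2 and 3 were above the WT range (log2 fold change 0.24, SE 0.14, adjusted p = 0.541, and 0.38 without cKO replicate 1). The smooth muscle calponin Cnn1 was at 0.06 to 0.68 FPKM.

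Myl9 (identifier 98932, chromosome 2, 156775408 to 156781657), a regulatory light chain of myosin II, had the highest cKO to WT ratio after Tagln. It was at 5.17, 6.03 and 7.22 FPKM in WT, against 6.14, 8.37 and 11.85 FPKM in cKO. The cKO value of replicate 3 was the highest and that of replicate 1 lay within the WT range. The mean was 143% of WT, with a log2 fold change of 0.42 (SE 0.20, interval -0.029 to 0.88, adjusted p = 0.440). It was 0.21 without cKO replicate 3 and turned to -0.074 after adjustment for the Y-linked share.

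The group means of the linkers were close, and none of them passed. Actn4 (identifier 60595, chromosome 7, 28893248 to 28962351), a non-muscle actinin, was at 31.9, 32.1 and 33.5 FPKM in WT, against 31.8, 34.7 and 33.9 FPKM in cKO (log2 fold change 0.040, interval -0.090 to 0.17, adjusted p = 0.830). Its highest library was 1.09 times its lowest, the smallest range of the 10 genes. Actn1 (identifier 109711, chromosome 12, 80167542 to 80260420), the other non-muscle actinin, was at 3.20, 3.03 and 3.04 FPKM in WT, against 2.77, 3.54 and 3.84 FPKM in cKO (log2 fold change 0.092, interval -0.15 to 0.34, adjusted p = 0.788). Actn1 thus varied more among the cKO libraries, which lay on both sides of WT, and Actn4 held 88.8% to 91.0% of the actinin sum throughout. Vcl (identifier 22330, chromosome 14, 20929383 to 21033676) was at 20.7, 23.1 and 17.4 FPKM in WT, against 17.3, 24.4 and 22.1 FPKM in cKO (log2 fold change 0.051, interval -0.26 to 0.36, adjusted p = 0.919). The cKO range enclosed the WT range, and its exons overlap those of Ap3m1 on the opposite strand, which had a mean of 28.3 FPKM.

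The genes also differed in which libraries stood high. The lowest library was cKO replicate 1 for 4 of the 10 genes and the highest was cKO replicate 3 for 4 and cKO replicate 2 for 3. Cnn2, Myl9, Tpm4, Actn1, Actn4 and Vcl each had their lowest cKO value in replicate 1. The microglia markers were also low there, with a sum over all 10 markers of 9.98 FPKM in cKO replicate 1, 25.9 and 26.9 FPKM in cKO replicates 2 and 3, and 19.2 to 19.8 FPKM in WT. Their part in the values of these 6 genes was not tested.

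**Figure D4:**
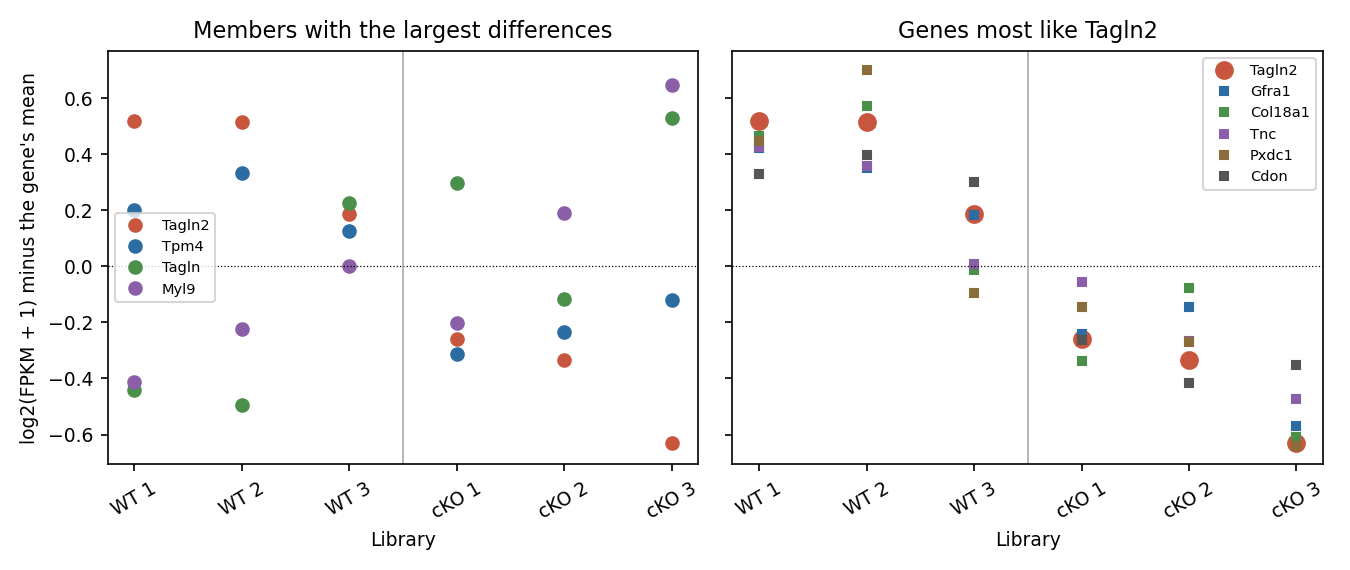
Log2(FPKM + 1) minus each gene's mean over the 6 libraries, for the 4 members with the largest differences (left) and for Tagln2 with the 5 genes most like it (right). Tagln2 is highest in WT replicates 1 and 2 and lowest in cKO replicate 3, and Tagln and Myl9 run the other way.

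Likeness to Tagln2 was measured as the root mean square difference between log2(FPKM + 1) profiles over the 6 libraries, each centred on its mean. It was ranked among the 1028 other genes whose profile had an SD of at least 0.5 times the 0.48 of Tagln2. The 5 nearest genes were Gfra1, a receptor for the growth factor GDNF (0.11), Col18a1, a basement membrane collagen (0.14), the matrix glycoprotein Tnc (0.15), Pxdc1 (0.15) and the hedgehog co-receptor Cdon (0.16). Since the profile holds the group difference, these genes were bound to be lower in cKO. Gfra1 was at 14.9, 14.2 and 12.5 FPKM in WT, against 9.07, 9.75 and 7.01 FPKM in cKO, with WT replicate 3 between the rest as for Tagln2. Tpm4 was the 99th in this ranking, at 0.26, and Myl9 and Tagln were the 987th and 1002nd. The profiles of the other 6 members were too flat to be ranked.

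The rest of the actin machinery was described by 7 lists with the 10 genes taken out. Together the lists held 153 tested genes, of which 0 passed in either direction in limma. At an unadjusted p under 0.05, 17 of the 153 were lower, where 7.82% of all genes were, and 10 were higher, where 4.44% of all genes were. Of the 153 genes 91 had lower and 62 higher means, beside 55.5% and 44.5% of all genes, and their median log2 fold change was -0.020, beside -0.015 for all genes.

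The actins themselves form the filament. Actb was at 655 to 668 FPKM in WT, against 543 to 681 FPKM in cKO (adjusted p = 0.640), and Actg1 at 675 to 744 and 591 to 778 FPKM (adjusted p = 0.951). The cKO libraries spread more widely than WT and replicate 1 was the lowest for both. Of the 20 tested genes of non-muscle myosin II and its control, 12 were lower and 8 higher on average, the median being -0.021. The heavy chain Myh9 was at 43.6, 43.9 and 41.6 FPKM in WT, against 37.4, 38.7 and 39.6 FPKM in cKO, without overlap (log2 fold change -0.15, adjusted p = 0.305). Ect2, the exchange factor that activates RhoA at cytokinesis, averaged 12.5 and 9.17 FPKM (adjusted p = 0.235), and the heavy chain Myh10 19.5 and 17.02 FPKM (adjusted p = 0.380). The light chain Myl12b had the higher mean in cKO, 105 against 94.8 FPKM (adjusted p = 0.375).

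Focal adhesion and stress fibre linkers were evenly divided, with 18 of 38 lower, 20 higher and a median of 0.0056. The LIM proteins Pdlim4 (153 and 114 FPKM, adjusted p = 0.268) and Csrp2 (7.04 and 4.82 FPKM, adjusted p = 0.323) were lower in cKO, and Pdlim5 (44.4 and 49.2 FPKM, adjusted p = 0.380) and Synpo2 (2.95 and 3.73 FPKM, adjusted p = 0.382) were higher. Of 52 genes of filament assembly, severing and bundling 30 were lower and 22 higher, with a median of -0.0066. The formin Diaph3 averaged 4.67 and 3.37 FPKM (adjusted p = 0.238) and moesin (Msn), which ties actin to the membrane, 60.2 and 51.1 FPKM (adjusted p = 0.244). Tmod2, which caps filament ends, averaged 35.9 and 41.2 FPKM (adjusted p = 0.297). No member of either list passed.

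In the 2 regulatory pathways the group means of Srf, Mrtfa, Mrtfb and Yap1 were close. The factor Tead1 and some targets had lower means in cKO, while other listed genes such as Amotl2 had higher means, none past the threshold. Srf averaged 6.47 and 6.34 FPKM (adjusted p = 0.927), its cofactors Mrtfa 5.42 and 5.37 FPKM and Mrtfb 6.78 and 7.10 FPKM (both named after their values were seen), and Yap1 34.1 and 33.5 FPKM (adjusted p = 0.895). In the list of the SRF pathway 13 of 15 tested genes were lower on average, the median being -0.067, beside 55.5% of all genes. With its 4 members of the 10 kept, Tagln, Myl9, Tpm1 and Vcl, which all had higher means, 13 of 19 were lower and the median was -0.022. Its genes of lowest p were the early response genes Egr1 (75.6 and 50.04 FPKM, adjusted p = 0.126) and Fos (31.7 and 13.1 FPKM, adjusted p = 0.176), while Srxn1, an antioxidant enzyme, averaged 23.2 and 30.9 FPKM (adjusted p = 0.242). In the list of YAP and TEAD 17 of 25 genes were lower, beside 55.5% of all genes, with a median of -0.059. That median was 0.0043 against WT replicate 3 alone and 0.066 after adjustment for the Y-linked share, the opposite sign. Tead1 averaged 24.5 and 21.2 FPKM (adjusted p = 0.294) and was lower in cKO without overlap, where 10.2% of all genes were. Amotl2 averaged 4.53 and 5.65 FPKM (adjusted p = 0.297) and was higher without overlap, where 7.07% of all genes were. Of the 25 genes 2 were lower and 2 higher without overlap. The target Ccn1 averaged 10.4 and 7.08 FPKM (adjusted p = 0.395), with WT replicate 3 at 7.14 FPKM, level with cKO. Ccn2 was at 0.09 to 0.31 FPKM.

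**Figure D5:**
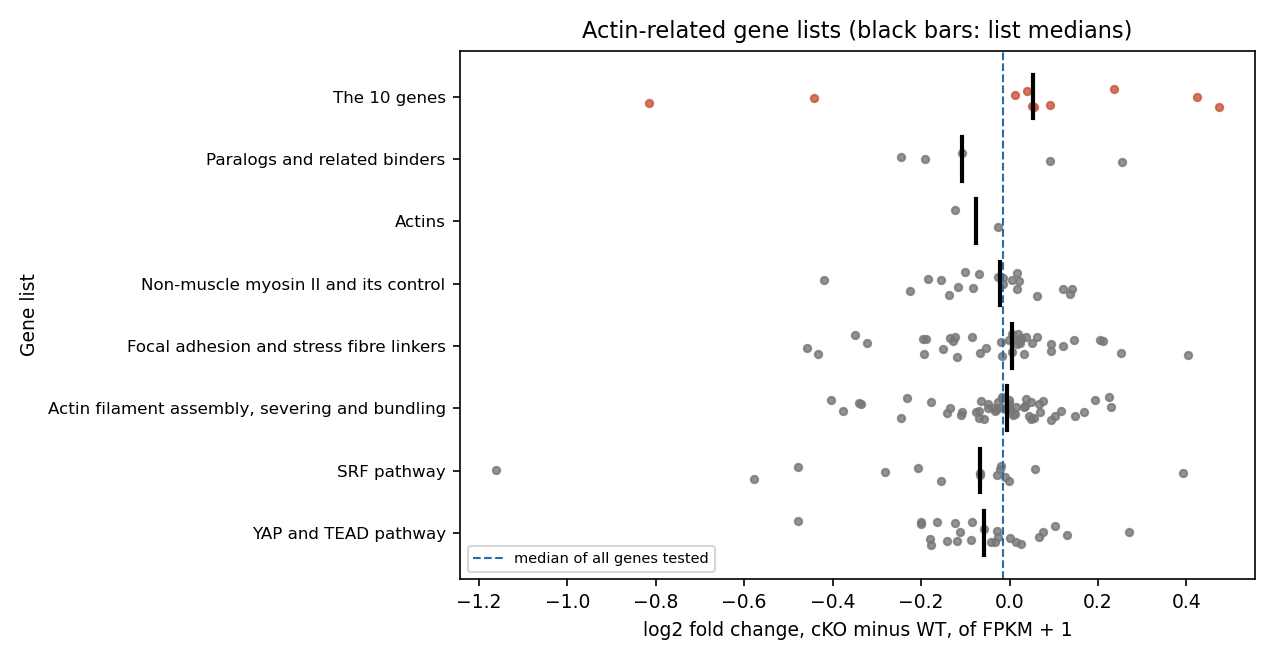
Log2 fold change of log2(FPKM + 1), cKO minus WT, of the 10 genes (red) and of the other tested genes of 7 actin-related lists (grey, 1 point per gene), with list medians as black bars and the median of all genes as a dashed line. The list medians lie between -0.11 and 0.0056, and Tagln2, which was picked for its fall, lies at -0.82, below every listed gene but Fos.

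Markers of the smooth muscle, mural and fibroblast cells that are known for high Tagln and Myl9 were mostly low, though some were measurable. Of 16 smooth muscle and pericyte markers 12 had a row, with a summed level of 28.7 to 38.6 FPKM in WT and 28.6 to 32.6 FPKM in cKO, most of it from Notch3 and Cspg4, which progenitors of neural and oligodendrocyte lineages also express. Of the 12 markers 8 did not reach the test minimum. Among these were Acta2 at 0.16 to 0.36 FPKM, Myh11 at 0.05 to 0.11, Des at 0.02 to 0.13 and Rgs5 at 0.06 to 0.21 FPKM. Besides Notch3 and Cspg4, Pdgfrb at 3.16 to 5.02 FPKM and Lmod1 at 1.78 to 2.45 FPKM reached it. Of 12 fibroblast markers 6 had a row, summing to 8.25 to 10.4 FPKM in WT and 9.01 to 12.6 FPKM in cKO. Pdgfra at 6.67 to 10.79 FPKM and Foxc1 at 0.81 to 1.55 FPKM reached the test minimum. Col1a1 was at 0.08 to 0.11 FPKM and Col1a2 at 0.01 to 0.08 FPKM. Of 10 endothelial markers 5 had a row and none reached the test minimum, and their sum was 1.31 to 1.78 FPKM in WT and 0.87 to 1.30 FPKM in cKO. Among the other cell types, 5 of 10 astrocyte markers were higher in cKO without overlap, where 7.07% of all genes were. Gjb6 was 1 of these, at 13.6 and 22.5 FPKM (adjusted p = 0.103). Of the 10 markers 8 had higher means, beside 44.5% of all genes, and 2 had lower means, Aqp4 and Aldh1l1. Gfap overlapped, at 1661 to 2741 FPKM in WT and 2408 to 2501 FPKM in cKO. The astrocyte markers summed to 4187 to 5510 FPKM in WT and 5604 to 5971 FPKM in cKO. Of 9 tested markers of the oligodendrocyte lineage 6 had lower means, beside 55.5% of all genes, and 3 had higher means. Of the 9, 1 was lower without overlap, Cnp at 155 and 136 FPKM (adjusted p = 0.324), where 10.2% of all genes were. Gpr17 had the largest log2 fold change of the list (0.93, SE 0.63) and a higher mean in cKO, 12.7 and 16.5 FPKM with overlap (adjusted p = 0.599). Its WT values were 3.37, 30.3 and 4.53 FPKM, so the WT mean rested on replicate 2. Mbp, a myelin protein, averaged 60.7 and 38.8 FPKM with overlap (adjusted p = 0.326). The list summed to 1434 to 1856 FPKM in WT and 1355 to 1596 FPKM in cKO. The part of astrocyte and oligodendrocyte content in the values of Tagln2 and Tpm4 was not tested. In such bulk libraries fewer cells of a type and less RNA per cell cannot be told apart.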

How the data were processed

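A BGISEQ service sequenced and processed the 6 neurosphere libraries, per the labels' protocols. The values the authors deposited are FPKM, per the file headers. The submitters' processing notes name Bowtie2, without a version, and the build GRCm38 (mm10). The sources used here name no counting tool or annotation. Read totals are not part of the table. Steps of 1 fragment were searched among 46 to 50 low values per library. At the best depth, 46.8% to 62.0% were whole within 0.1. Reads could thus not be recovered as whole numbers, no count test was used, and precision rests on the spread between libraries.

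Tests used log2(FPKM + 1) and the 11596 genes that averaged 1 FPKM or more, leaving out 2731, on a scale where the change of low genes is understated. The comparison of WT and cKO used limma 3.58.1 under R 4.3.3 (eBayes with trend, two-sided, Benjamini-Hochberg over all tested genes, threshold 0.05). On simulated data for these 11596 genes, 94% of genes changed by 1 on the log2 scale were found. Many genes were changed at once there and noise was drawn for each gene alone, whereas 3 genes passed in the real comparison. The share may thus be too high for these libraries. Smaller changes were not simulated. Every member changed by less than 1, so this share does not apply to changes of their size. The members, lists and alternatives were chosen with earlier results of these data known. Genes named are the 10 members, up to 4 of lowest p in each list, a set of actin regulators and paralogs, and the 5 genes nearest to Tagln2 in profile. Myh11, Des, Rgs5, Col1a1 and Col1a2 were named outside this rule, after their values were seen, as defining markers of their cell types, and Pcsk7 and Ap3m1 because their exons overlap members. Promoters are from RefSeq (GRCm38.p6), matched for 9 of 10 members, gene positions from RefSeq and overlaps from GENCODE M21. No protein sequences were used here. Alternatives were other pseudocounts, filters, scalings and variance models, weights for libraries, a block for the replicate number, each library left out, WT replicate 3 alone, and the Y-linked share (Ddx3y plus Eif2s3y relative to the cKO mean) as a covariate. Python 3.11.15 and matplotlib 3.10.9 drew the figures.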

Additional observations from a re-analysis of the deposited data

How the results depend on the processing

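With 3 libraries a group, FPKM without read totals and few calls, the number of genes past the threshold moved with the processing. It was 1 higher and 2 lower in the comparison as reported, 54 and 75 with library weights, and 0 and 0 with no filter on low values, quantile normalization, no variance trend, WT replicate 3 alone or adjustment for the Y-linked share. Leaving out 1 library gave 0 to 4 higher and 0 to 6 lower genes: 0 and 0 without WT replicate 1 or cKO replicate 1, 1 and 1 without WT replicate 2, 4 and 6 without WT replicate 3, 0 and 1 without cKO replicate 2, and 1 and 0 without cKO replicate 3. With the replicate number as a block 9 genes were higher and 13 lower, and no member among the 9 tested passed (adjusted p = 0.0750 for Tpm4, 0.119 for Myl9 and 0.161 for Tagln). Same-numbered libraries correlated in their deviations from the group means at -0.043, 0.30 and 0.26. Over all pairs the range was -0.40 to 0.30, and 0.30 and 0.26 were the highest. Deviations within a group sum to 0, so these correlations depend on each other. They cannot settle whether the numbers pair the libraries, and no pairing was assumed. Not every library correlated best with its own number.

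The members' median log2 fold change of 0.053 was 0.024 to 0.13 with 1 library left out and -0.050 after that adjustment. Tpm4 had a negative log2 fold change in all 17 alternatives, as did Tagln2, which was picked for its fall in these same libraries. For both genes every cKO value was below every WT value. Leaving out libraries, or another pseudocount, filter or variance model, could therefore not turn the sign. Small differences turned sign with single libraries left out, where Cnn3 ranged from -0.058 to 0.058, Tpm1 from -0.025 to 0.14 and Vcl from -0.052 to 0.19. Cnn3 was at -0.033 with library weights, -0.058 without WT replicate 2, -0.017 without cKO replicate 1, -0.0074 without cKO replicate 3, -0.065 against WT replicate 3 alone and -0.21 after adjustment. Actn4 was at -0.0034 against WT replicate 3 alone and -0.026 after adjustment. Tpm1 was at -0.025 without cKO replicate 2 and Vcl at -0.052 without WT replicate 3 and -0.051 without cKO replicate 2. After adjustment for the Y-linked share, which nearly follows the label and leaves the values imprecise, Myl9 was at -0.074 and Tagln at -0.74. The cause of these changes was not tested.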
